A study of Mus musculus with 7 samples.

Results

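Core autophagy genes and lysosomal genes were followed as a group of 47 genes, chosen by name, among 23678 genes measured in mouse heart. The choice was made with earlier results of these data known. All 47 had at least 1 probe that was well above background on all 7 arrays. Of these, 23 build the autophagosome and are called the autophagy core here. A further 17 encode lysosomal proteases, glycosidases, membrane and lipid proteins and proton pump parts. The other 7 encode transcription factors or proteins of autophagosome maturation. In the 3 double knockout hearts (DKO), Akt1 was homozygous for loxP-flanked exons 6 and 7 and Akt2 for loxP-flanked exons 5 and 6, and a heterozygous MHC-mercremer transgene was present. MHC-mercremer is a Cre recombinase that tamoxifen switches on and that the alpha myosin heavy chain promoter restricts to cardiomyocytes, so that the other cells of these hearts kept both Akt genes. The 4 control hearts carried the heterozygous MHC-mercremer transgene alone. All 7 mice were C57Bl/6 males aged 3 months. Hydroxytamoxifen (500 µg daily, 5 days) was given to both groups, and hearts were taken 10 days after that induction, with no further treatment. RNA came from the heart apex, and each heart was hybridised to its own 1-colour Agilent array.

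Autophagy encloses cytoplasm in a double membrane, the autophagosome, which fuses with a lysosome whose acid hydrolases break down the contents. Akt restrains the pathway by activating mTORC1, which phosphorylates the Ulk1 complex and keeps the transcription factors Tfeb and Tfe3 out of the nucleus, and by phosphorylating FoxO factors. In the heart, loss of Atg5, Lamp2 or Gaa is known to cause cardiomyopathy, because long-lived cardiomyocytes depend on lysosomal clearance of organelles and glycogen. Values below are normalized log2 signals of the brightest probe of each gene, differences are DKO minus control on the log2 scale with the standard error of the fit, and "rose" or "fell" is used only for an adjusted p below 0.05 over all 23678 genes.

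The brightest Akt2 probe read 11.64, 11.67 and 11.61 in DKO hearts, against 13.78, 13.70, 13.61 and 13.65 in control hearts. The brightest Akt1 probe read 14.68, 14.60 and 14.66 in DKO hearts and 14.46, 14.51, 14.40 and 14.55 in control hearts (0.17 ± 0.07). A dimmer Akt1 probe gave 0.47 ± 0.16, so that neither showed a loss. The positions of these probes relative to the deleted exons were not analysed here, and outside those exons the probes would check nothing. Cardiomyocyte markers were present as labelled, all 10 being well above background on every array, with summed signals of 2250000 to 2480000 in DKO hearts and 2280000 to 2360000 in control hearts (sums of normalized signals on the linear scale). The share of probes well above background ranged over the arrays from 50.9% to 55.7%, and no spot was saturated. Precision is limited by how few arrays there are. In RNA from whole tissue, fewer cells of a type and less RNA per cell cannot be told apart.

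Among lysosomal genes the 2 members that rose were found, and most of the others lay slightly higher in DKO hearts. Of the 17 lysosomal genes, 13 had a higher DKO mean, and their log2 differences had a median of 0.25 and a range of -0.19 to 0.96. Of the 23 core genes, 15 were higher, with a median of 0.07 and a range of -0.45 to 0.41. Over all 23678 genes the median was -0.02 and 46.9% were higher, while over the 14720 genes with a symbol the median was 0.02 and 54.1% were higher. Past an adjusted p of 0.05 in limma, 2 of the 17 lysosomal genes rose (11.8%), Ctsl and Hexa, and none fell. None of the 23 core genes rose or fell by limma, while 5 were higher and none lower at an unadjusted p below 0.05. Of these, Wipi2, Atg14 and Ulk1 passed under some other settings, among them a trended and robust variance prior (adjusted p = 0.031, 0.032 and 0.0217 by limma). The same fit called 4.70% of all genes, 2.41% as higher and 2.29% as lower. Of the 14720 genes with a symbol it called 3.02% as higher. All members have a symbol, and shares of all genes given below include genes without one.

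The signals of the groups did not overlap for 13 of the 17 lysosomal genes, with DKO hearts higher in 12 and lower in 1. This held for 6 of the 23 core genes (26.1%), all with DKO hearts higher. Among all genes 25.7% did not overlap, 13.2% with DKO hearts higher and 12.5% with DKO hearts lower. Of the 14720 genes with a symbol 27.4% did not overlap, 2394 genes with DKO hearts higher. Counting both directions, the core stood near the background share and the lysosomal genes, at 76.5%, above it. Counting only genes with DKO hearts higher, the core at 26.1% also stood above the background share of 13.2%. At an unadjusted p below 0.05 in limma, 12 lysosomal genes were higher (70.6%) and 5 core genes (21.7%). At that threshold 11.6% of all genes and 14.2% of genes with a symbol were higher, and 25.5% of all genes passed in either direction. The genes of a list share the same 7 hearts, and the lists were chosen with earlier results of these data known. These shares are therefore descriptions and were not tested.

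**Figure D1:**
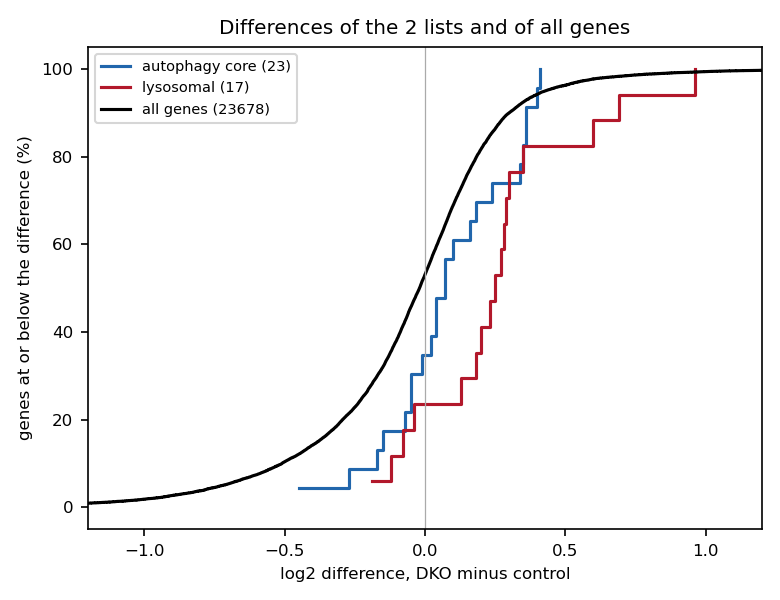
Cumulative share of genes (y axis, percent) against the log2 difference, DKO minus control (x axis), for the 17 lysosomal genes, the 23 core genes and all 23678 genes. The medians are 0.25 for lysosomal genes, 0.07 for core genes and -0.02 for all genes. The core differences end at 0.41 and the lysosomal ones at 0.96, while those of all genes run on beyond both.

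Gene by gene, the median of the 17 lysosomal differences from the control mean was 0.23, 0.28 and 0.18 in the DKO hearts, against -0.03, 0.07, -0.02 and -0.01 in the control hearts. Every DKO heart was thus above every control heart. For the 23 core genes the same medians were 0.14, 0.06 and 0.01 in DKO hearts and 0.02, 0.08, -0.06 and 0.02 in control hearts, and the groups overlapped. Groups were spread unevenly over the rows of the slide, with 1 DKO and 3 control arrays in row 1 and 2 DKO and 1 control array in row 2. Within row 1 the median difference was 0.18 for lysosomal and 0.02 for core genes, and within row 2 it was 0.20 and 0.02.

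Among the lysosomal proteases, Ctsl, the cysteine protease cathepsin L, rose in DKO hearts. Its signal was 14.50, 14.66 and 14.25 in DKO hearts, against 13.60, 13.49, 13.55 and 13.39 in control hearts. The lowest DKO heart lay clearly above the highest control heart, and the DKO mean was 1.94-fold the control mean, a log2 difference of 0.96 ± 0.11 (SE, 3 and 4 hearts; adjusted p = 0.0106 by limma). Without DKO replicate 1 the difference was 0.94 and the adjusted p 0.0536 by limma. With slide row as a block it was 0.90 (adjusted p = 0.0399 by limma), and within rows 1 and 2 it was 0.73 and 1.09.

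Hexa, the alpha subunit of beta-hexosaminidase, whose loss causes Tay-Sachs disease in humans, rose as well. Its signal was 12.74, 12.63 and 12.64 in DKO hearts, against 11.92, 11.94, 12.04 and 11.99 in control hearts. Both groups were tight, with SDs of 0.06 and 0.05, and the DKO mean was 1.62-fold the control mean, a log2 difference of 0.69 ± 0.07 (SE, 3 and 4 hearts; adjusted p = 0.00811 by limma). When each of the 7 arrays was left out in turn, Hexa passed every time, with the highest adjusted p at 0.04 without DKO replicate 1 (limma). With slide row as a block the difference was 0.69 (adjusted p = 0.0328 by limma), and within rows 1 and 2 it was 0.65 and 0.74.

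Tfeb and Tfe3 are known to act on lysosomal genes through the CLEAR element, an E-box with fixed flanks, so the start regions of the members were read for it. RefSeq promoters of build GRCm38.p6, 250 bases before to 50 bases after the start, were found for 38 of the 47 members. The letters TCACGTGA, the centre of the CLEAR element and its own reverse complement, stood in 4 of 14 lysosomal promoters (28.6%), in 1 of 18 core promoters (5.56%) and in 1.98% of the 11656 promoters of genes measured here. The 4 were those of Atp6v0d1, Ctsd, Gla and Mcoln1, and the core gene was Atg3. Their log2 differences were 0.29, 0.30, -0.19, 0.27 and -0.05 in that order, none past the adjusted threshold. The shorter E-box CACGTG, which TCACGTGA contains, stood in 7 of 14 lysosomal and 4 of 18 core promoters (22.2%), against 11.1% of promoters of measured genes. The FoxO letters GTAAACA, read on both strands, stood in none of the 38, against 3.25% of promoters of measured genes. Such matches describe these letters in these windows only.

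The promoters of Ctsl and Hexa are shown because these are the genes that rose, and those of Mcoln1 and Ctsd because they hold TCACGTGA. Capitals mark CACGTG and TCACGTGA. The windows are chr13:64370471-64370770 on the minus strand (Ctsl), chr9:59539290-59539589 on the plus strand (Hexa), chr8:3500269-3500568 on the plus strand (Mcoln1) and chr7:142387778-142388077 on the minus strand (Ctsd), from RefSeq, GRCm38.p6.
Ctsl: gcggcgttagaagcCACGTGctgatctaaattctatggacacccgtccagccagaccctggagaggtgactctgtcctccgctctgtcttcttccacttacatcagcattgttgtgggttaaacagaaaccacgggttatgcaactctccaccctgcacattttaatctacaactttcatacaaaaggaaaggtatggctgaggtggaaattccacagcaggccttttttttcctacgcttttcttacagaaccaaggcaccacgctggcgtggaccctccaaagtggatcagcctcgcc
Hexa: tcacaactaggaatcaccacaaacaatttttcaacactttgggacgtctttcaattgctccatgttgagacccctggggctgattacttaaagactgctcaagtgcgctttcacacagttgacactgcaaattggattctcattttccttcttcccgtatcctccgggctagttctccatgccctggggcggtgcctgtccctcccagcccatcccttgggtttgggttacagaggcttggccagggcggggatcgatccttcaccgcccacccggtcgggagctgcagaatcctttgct
Mcoln1: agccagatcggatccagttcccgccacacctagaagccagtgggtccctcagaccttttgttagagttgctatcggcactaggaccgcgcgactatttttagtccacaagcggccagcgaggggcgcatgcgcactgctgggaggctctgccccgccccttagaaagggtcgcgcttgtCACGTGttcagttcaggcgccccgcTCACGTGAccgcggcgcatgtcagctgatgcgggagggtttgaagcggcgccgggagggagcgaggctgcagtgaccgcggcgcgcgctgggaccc
Ctsd: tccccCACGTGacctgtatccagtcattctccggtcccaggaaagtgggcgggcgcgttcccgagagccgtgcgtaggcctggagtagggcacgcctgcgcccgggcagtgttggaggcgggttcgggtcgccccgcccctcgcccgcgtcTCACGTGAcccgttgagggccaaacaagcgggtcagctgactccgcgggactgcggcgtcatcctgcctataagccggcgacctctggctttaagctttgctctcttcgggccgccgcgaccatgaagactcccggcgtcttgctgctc
Neither window of the genes that rose holds TCACGTGA. That of Ctsl has a single CACGTG that begins 236 bases before the start, and that of Hexa has none. TCACGTGA begins 46 bases before the start in Mcoln1 and 99 bases before it in Ctsd, each with a further CACGTG upstream, at 71 and 245 bases.

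Ctsd, the aspartic protease cathepsin D, read 16.17, 16.12 and 15.97 in DKO hearts and 15.79, 15.87, 15.77 and 15.72 in control hearts. All DKO hearts were above all control hearts, yet the difference of 0.30 ± 0.08 did not pass (adjusted p = 0.0834 by limma). Ctsz, the carboxypeptidase cathepsin Z, gave 0.25 ± 0.09 (adjusted p = 0.16 by limma), with DKO hearts at 11.61 to 11.70 and control hearts at 11.28 to 11.61, so that the groups only just did not overlap before rounding. Ctsb, a cysteine protease like Ctsl, was the 1 lysosomal gene whose DKO hearts were all lower, at 15.36 to 15.41 against 15.44 to 15.62 in control hearts (-0.12 ± 0.07, adjusted p = 0.331 by limma). Ctss, a protease abundant in macrophages, overlapped between groups (-0.08 ± 0.13). The proteases thus did not move together.

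Macrophages are rich in Ctss and Ctsz, and their markers were read beside the proteases. All 12 macrophage markers were well above background on every array, and 0 were called. At an unadjusted p below 0.05 in limma 1 was higher and 1 lower, as were 11.6% and 13.9% of all genes. Their summed signal was 19100 to 24800 in DKO hearts and 19900 to 22200 in control hearts. All 10 fibroblast markers were measured, 8 of them higher in DKO hearts, and their sum was 115000 to 135000 in DKO hearts and 110000 to 116000 in control hearts. All 8 endothelial markers were higher in DKO hearts, with sums of 68100 to 71300 against 60300 to 67100 in control hearts that did not overlap, and a median log2 difference of 0.19. Mural markers (8 of 8 measured) had a median of 0.29, 1 of them, Myh11, being called. Higher in every DKO heart were 5 of the 8, as were 13.2% of all genes. At an unadjusted p below 0.05 in limma, 4 were higher and 1 lower. Their sums overlapped, at 64600 to 74800 in DKO hearts and 66300 to 79000 in control hearts. The brightest of them, Acta2, was lower (-0.41 ± 0.14) and weighed most in these sums. Of 9 markers of other leukocytes 7 were measured, Cd79a and Cd8a not being well above background, with sums of 1790 to 2260 in DKO hearts and 1540 to 2690 in control hearts. Of 6 atrial markers 4 were measured, Sln and Bmp10 not being kept, and they were mixed, with 2 higher and 2 lower in DKO hearts, a median of -0.12 and none called (2 higher and 1 lower at an unadjusted p below 0.05 in limma). Nppa made up nearly all of the summed signal, which was 125000 to 187000 in DKO hearts and 64300 to 109000 in control hearts, and was higher in every DKO heart (0.82 ± 0.21). Myl4 was lower in every DKO heart (-0.43 ± 0.15), and Myl7 gave -1.09 ± 0.47. The part of these cell types in the lysosomal differences was not tested.

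Of the other glycosidases, Gaa and Gla had larger standard errors than Hexa, and Neu1 a similar one. Gaa, the acid alpha-glucosidase that degrades lysosomal glycogen and is deficient in Pompe disease, read 14.89, 14.47 and 14.79 in DKO hearts and 13.48, 14.48, 14.23 and 14.28 in control hearts. The groups overlapped narrowly, control replicate 1 was far below the other controls, and the difference of 0.60 ± 0.24 (adjusted p = 0.179 by limma) became 0.39 without that array. A dimmer Gaa probe gave 0.71 ± 0.20 (adjusted p = 0.0921 by limma over probes), and the mean of both probes passed (0.66, adjusted p = 0.019 by limma). Neu1, the lysosomal sialidase, was at 11.30 to 11.48 in DKO hearts and 11.12 to 11.27 in control hearts (0.20 ± 0.08). Gla, the alpha-galactosidase lost in Fabry disease, was at 15.78 to 15.93 in DKO hearts and 15.86 to 16.37 in control hearts (-0.19 ± 0.13).

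Of the 5 lysosomal membrane and lipid genes, 4 were higher in every DKO heart, where 13.2% of all genes were, and Npc1 was not. None passed the adjusted threshold, and 4 were higher at an unadjusted p below 0.05 in limma, as were 11.6% of all genes. Mcoln1, the calcium channel TRPML1, read 11.82, 11.91 and 11.81 in DKO hearts and 11.59, 11.55, 11.61 and 11.57 in control hearts (0.27 ± 0.07, adjusted p = 0.0697 by limma). Npc2, which hands cholesterol to Npc1 for export, read 11.63, 11.67 and 11.70 in DKO hearts and 11.42, 11.46, 11.42 and 11.26 in control hearts (0.28 ± 0.08, adjusted p = 0.0875 by limma). Its partner Npc1 overlapped between groups (-0.04 ± 0.10), so the pair did not differ alike. The membrane glycoproteins Lamp1 and Lamp2 gave 0.18 ± 0.07 and 0.23 ± 0.08, and a further probe of each gave 0.17 and 0.27.

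The 3 proton pump genes among the members did not overlap between groups, all with DKO hearts higher, where 13.2% of all genes were so. None passed the adjusted threshold (2 were higher at an unadjusted p below 0.05 in limma, as were 11.6% of all genes). Of 15 further pump subunits 10 had a higher and 5 a lower DKO mean. Atp6v0d1, of the membrane sector of the V-ATPase that acidifies the lysosome, read 11.60, 11.67 and 11.48 in DKO hearts and 11.26, 11.34, 11.25 and 11.33 in control hearts (0.29 ± 0.08, adjusted p = 0.0763 by limma). Atp6v1h, a regulatory subunit of the cytosolic sector, read 11.80, 11.51 and 11.45 in DKO hearts and 11.14, 11.34, 11.21 and 11.24 in control hearts (0.35 ± 0.10, adjusted p = 0.102 by limma). Its dimmer probe gave a larger difference, 0.56 ± 0.12 (adjusted p = 0.0519 by limma over probes). The accessory subunit Atp6ap1 gave 0.13 ± 0.10, with DKO hearts at 11.42 to 11.44 and control hearts at 11.06 to 11.40.

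**Figure D2:**
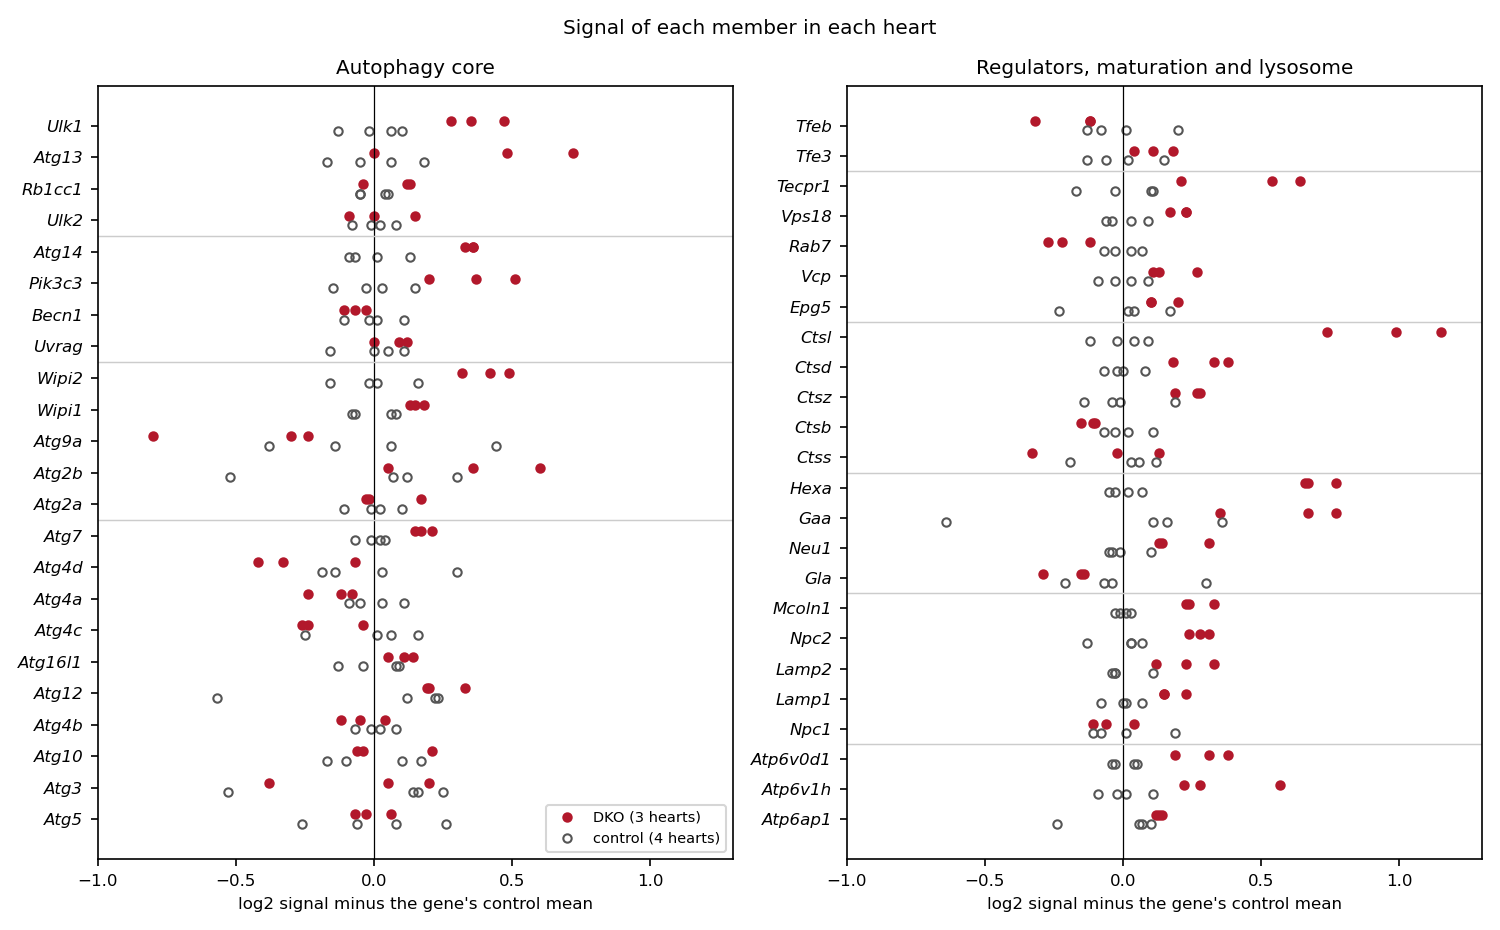
Signal of each of the 47 members in each heart, as log2 signal minus the gene's mean over control hearts (x axis), with filled points for 3 DKO hearts and open points for 4 control hearts and grey lines between roles. Ctsl and Hexa stand clear of their controls, most lysosomal genes show DKO points just right of the control points, and most core genes overlap.

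In the autophagy core, the initiation complex had 4 of 4 genes higher. Ulk1, the kinase that starts autophagosome formation, read 14.06, 14.18 and 13.99 in DKO hearts and 13.81, 13.69, 13.58 and 13.77 in control hearts. The groups did not overlap, and the difference of 0.36 ± 0.09 missed the threshold (adjusted p = 0.0667 by limma). A second, much dimmer Ulk1 probe gave 0.63 ± 0.11 and passed over probes (adjusted p = 0.0326 by limma, 4.40% of 30466 probes called). That probe is singled out here after its values were seen. Atg13, the adaptor of the complex, read 13.07, 12.35 and 12.83 in DKO hearts and 12.41, 12.53, 12.18 and 12.30 in control hearts, with DKO replicate 2 among the controls (0.40 ± 0.18, adjusted p = 0.208 by limma). The scaffold Rb1cc1 and the kinase Ulk2 gave 0.07 ± 0.08 and 0.02 ± 0.08.

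The class III PI3 kinase complex marks the membrane on which the autophagosome grows. Atg14, the subunit that directs it to autophagy, read 9.34, 9.31 and 9.34 in DKO hearts and 8.91, 9.11, 8.99 and 8.89 in control hearts. DKO hearts were nearly identical and all higher, and the difference of 0.35 ± 0.08 stood just outside the threshold (adjusted p = 0.0532 by limma). Without control replicate 2 it was 0.40 and passed (adjusted p = 0.046 by limma). Pik3c3, the catalytic subunit Vps34, read 8.63, 8.94 and 8.80 in DKO hearts and 8.46, 8.58, 8.40 and 8.28 in control hearts (0.36 ± 0.11, adjusted p = 0.102 by limma). Becn1, the shared regulatory subunit, and Uvrag, the subunit of the endosomal form, overlapped between groups at -0.07 ± 0.08 and 0.07 ± 0.09. The subunit specific to autophagy and the kinase were thus higher in every DKO heart, as were 13.2% of all genes, and neither passed the adjusted threshold. Becn1 and Uvrag overlapped, and the difference between subunits was not tested.

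Wipi2, which binds the lipid made by Pik3c3 and recruits Atg16l1, read 9.51, 9.58 and 9.41 in DKO hearts and 9.25, 9.07, 8.93 and 9.10 in control hearts (0.41 ± 0.10, adjusted p = 0.0602 by limma). Its relative Wipi1 read 14.01, 13.99 and 14.04 in DKO hearts and 13.79, 13.94, 13.78 and 13.92 in control hearts (0.16 ± 0.07, adjusted p = 0.241 by limma). Neither pair of groups overlapped. The lipid scramblase Atg9a was lower (-0.45 ± 0.22) and the lipid transfer protein Atg2b higher (0.34 ± 0.22), both with overlapping groups and wide errors. Control replicate 1 was the highest control for Atg9a and the lowest for Atg2b, and without it the differences were -0.30 and 0.17. Atg2a gave 0.04 ± 0.09.

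The conjugation machinery, which couples ATG8 proteins to lipid, showed no common direction. Of its 10 genes 4 were higher and 6 lower, with a median of -0.03 and none past the threshold. At an unadjusted p below 0.05 in limma 1 was higher, as were 11.6% of all genes. Atg7, the activating enzyme of both conjugation reactions, was the only one of the 10 whose groups did not overlap, at 10.35, 10.39 and 10.33 in DKO hearts and 10.20, 10.22, 10.11 and 10.17 in control hearts (0.18 ± 0.07, adjusted p = 0.15 by limma). Its second probe gave 0.21 ± 0.08. The Atg4 proteases, which trim ATG8 proteins and release them from lipid, were all lower, by values from -0.05 for Atg4b to -0.27 for Atg4d. Atg4d read 13.23, 13.49 and 13.14 in DKO hearts and 13.86, 13.59, 13.37 and 13.42 in control hearts (-0.27 ± 0.15, adjusted p = 0.296 by limma). A dimmer Atg4b probe was higher by 0.33 ± 0.17, so the direction for Atg4b is unsettled. The conjugating enzymes Atg3 and Atg10 and the conjugate of Atg5, Atg12 and Atg16l1 gave -0.05, 0.04, -0.01, 0.24 and 0.10, all with overlapping groups. The Atg12 difference was 0.05 without control replicate 1.

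Of the transcription factors of lysosomal genes, Tfeb read 9.10, 9.10 and 8.90 in DKO hearts and 9.09, 9.42, 9.14 and 9.23 in control hearts (-0.19 ± 0.11, adjusted p = 0.31 by limma). Its 3 further probes gave -0.14, -0.05 and -0.05. Tfe3 read 11.20, 11.27 and 11.34 in DKO hearts and 11.31, 11.18, 11.03 and 11.10 in control hearts (0.11 ± 0.09, adjusted p = 0.467 by limma). Both overlapped between groups. These are transcript levels, and the arrays do not measure where the proteins reside.

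Genes of autophagosome maturation were mixed, and none of the 5 passed (2 higher and 1 lower at an unadjusted p below 0.05 in limma, as were 11.6% and 13.9% of all genes). Tecpr1, a tether between autophagosome and lysosome, read 13.51, 13.41 and 13.08 in DKO hearts and 12.84, 12.97, 12.98 and 12.70 in control hearts (0.46 ± 0.13, adjusted p = 0.0864 by limma). Vps18, a subunit of the HOPS tethering complex, read 10.37, 10.43 and 10.43 in DKO hearts and 10.16, 10.14, 10.29 and 10.23 in control hearts (0.21 ± 0.07, adjusted p = 0.137 by limma). Rab7, the GTPase of late endosomes, was lower in every DKO heart, at 11.99 to 12.14 against 12.19 to 12.33 in control hearts (-0.21 ± 0.07, adjusted p = 0.147 by limma). Its second probe gave -0.01 ± 0.10. The segregase Vcp and the tether Epg5 gave 0.17 ± 0.08 and 0.13 ± 0.10, with no overlap between groups for Vcp.

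**Figure D3:**
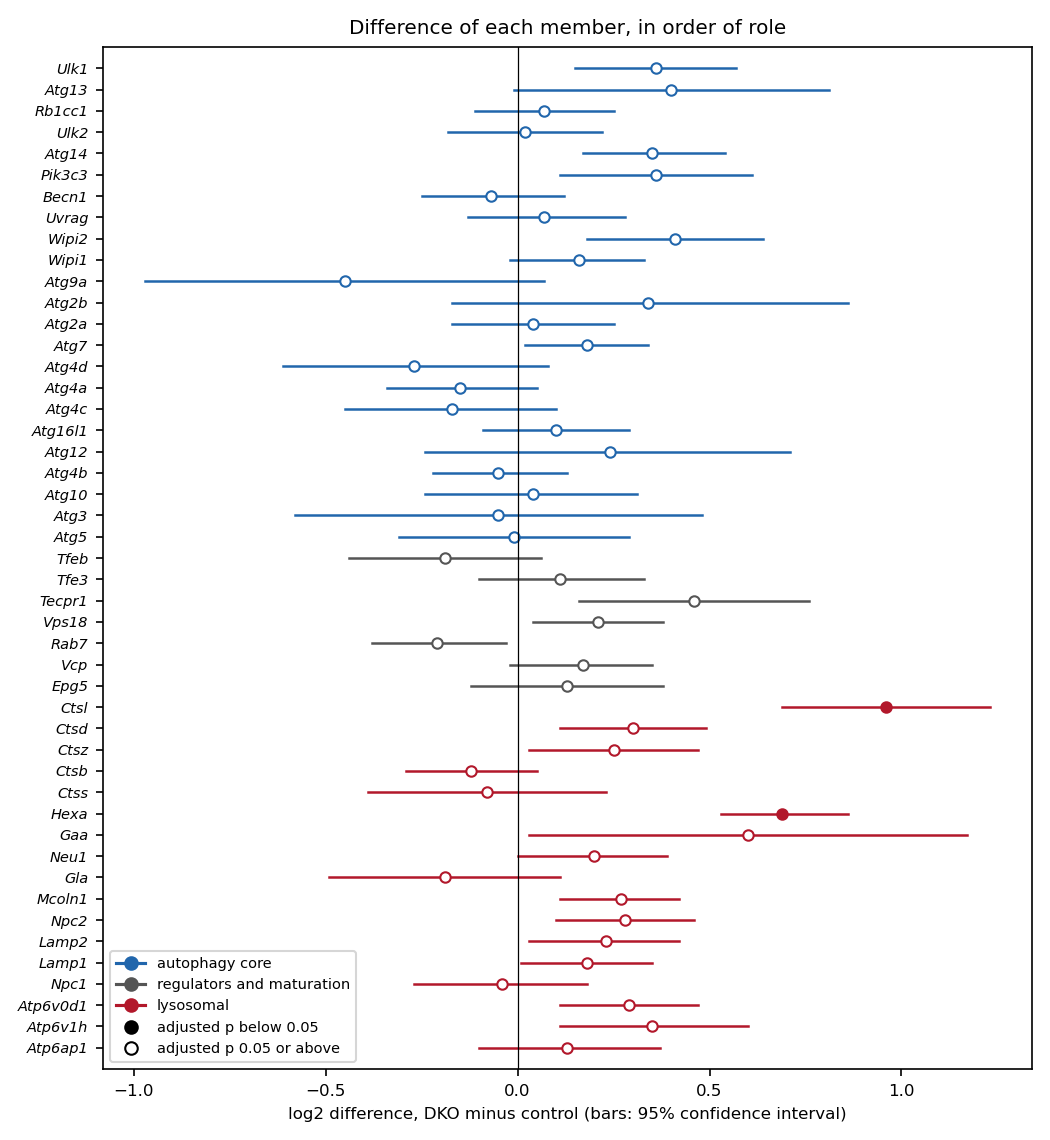
Log2 difference, DKO minus control (x axis), of each of the 47 members in order of role, with 95% confidence intervals from limma as bars and filled points where the adjusted p was below 0.05. Only Ctsl and Hexa are filled, and 32 of the 47 intervals lie within -0.5 to 0.5.

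The intervals bound what these hearts could hide. For 32 of the 47 members the 95% confidence interval of the difference lay within -0.5 to 0.5 on the log2 scale, that is under 1.41-fold either way, as it did for 51.8% of all genes. This held for 13 of the 17 lysosomal and 13 of the 23 core genes. Standard errors of members ran from 0.07 to 0.24. The widest intervals were those of Gaa (0.03 to 1.17), Atg3 (-0.58 to 0.48), Atg9a (-0.97 to 0.07) and Atg2b (-0.17 to 0.86), each of them with a control replicate 1 more than 0.5 from the mean of the other controls.

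For 16 members more than 1 probe was kept, and in 13 of them all probes differed in the same direction. The exceptions were Atg4b, Atg10 and Rb1cc1. The 6 Rb1cc1 probes gave from -0.08 to 0.24, and the 2 Atg10 probes 0.04 and -0.05. Probes of 1 member differed by 0.1 in the median and by at most 0.38, for Atg4b, on the log2 scale.

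**Figure D4:**
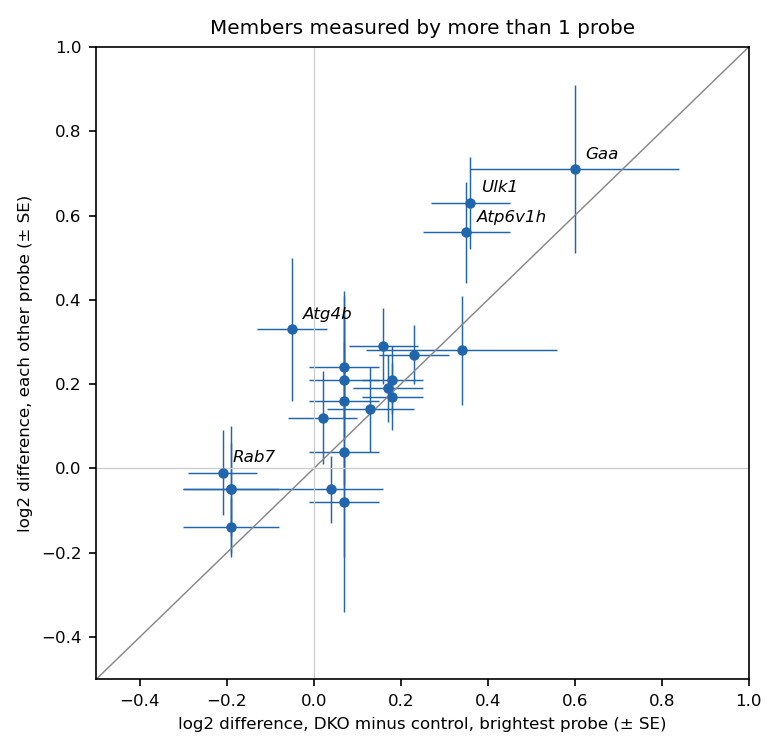
Log2 difference, DKO minus control, of each further probe (y axis) against that of the brightest probe (x axis) for the 16 members with more than 1 kept probe, with standard errors as bars and the line of equality. Ulk1 and Atp6v1h lie above the line, with 0.63 and 0.56 in the dimmer probe against 0.36 and 0.35, and Atg4b has opposite signs.

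Of 120 further genes of the pathway listed, 119 were measured. In limma 12 of them rose (10.1%) and 2 fell, where 2.41% of all genes rose and 2.29% fell. Of genes with a symbol 3.02% rose. The DKO mean was above the control mean for 88 of the 119 (73.9%), against 46.9% of all genes and 54.1% of those with a symbol. The share that rose was largest among ATG8 proteins and cargo receptors, with 6 of 14 and none falling, and a median log2 difference of 0.32. Of these, Optn and Calcoco1 recognise cargo and rose by 0.58 ± 0.11 and 0.56 ± 0.08 (adjusted p = 0.0321 and 0.0192 by limma). Calcoco1 read 9.77, 9.80 and 9.90 in DKO hearts, against 9.35, 9.33, 9.13 and 9.25 in control hearts. The others were the ATG8 protein Gabarapl1, the receptors Bnip3 and Sqstm1 and the kinase Pink1. Among these receptors and ATG8 proteins, 11 of 14 did not overlap between groups, all with DKO hearts higher, where 13.2% of all genes were so.

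In a list of 35 other genes, made up of lysosomal hydrolases, their cofactors and Gnptg, 2 rose (5.71%, against 2.41% of all genes) and none fell. Of these 2, only Lipa is a hydrolase. The DKO mean was higher for 28 of the 35, and the median difference was 0.17. The groups did not overlap for 34.3% of the 35, against 76.5% of the 17 lysosomal members and 25.7% of all genes. At an unadjusted p below 0.05 in limma 28.6% were higher, against 70.6% of those 17 members. Lipa, the acid lipase that frees cholesterol and fatty acids in the lysosome, read 10.27, 10.51 and 10.43 in DKO hearts and 9.44, 9.54, 9.60 and 9.64 in control hearts (0.84 ± 0.09, adjusted p = 0.00886 by limma). Gnptg is a subunit of the enzyme that tags hydrolases with mannose 6-phosphate for delivery to the lysosome. It read 11.22, 11.27 and 11.14 in DKO hearts and 10.75, 10.84, 10.70 and 10.78 in control hearts (0.45 ± 0.07, adjusted p = 0.025 by limma). Gnptab, which encodes the catalytic part of that enzyme, rose too, at 10.24, 10.35 and 10.35 in DKO hearts against 9.88, 9.93, 9.80 and 10.01 in control hearts (0.41 ± 0.08, adjusted p = 0.0383 by limma). Both genes of the tagging enzyme were thus higher in every DKO heart.

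Among 24 other lysosomal membrane and sorting genes 23 were measured, and beside Gnptab the tetraspanin Cd63 rose (8.7% rose, against 2.41% of all genes). The median of the 23 was 0.09, and 26.1% did not overlap between groups, near the 25.7% of all genes. Cd63 read 15.05, 15.09 and 14.93 in DKO hearts and 14.44, 14.43, 14.48 and 14.36 in control hearts (0.59 ± 0.07, adjusted p = 0.012 by limma). Of 15 other proton pump subunits none passed, with a median of 0.11, and 40.0% did not overlap between groups. At an unadjusted p below 0.05 in limma 2 were higher (13.3%) and 2 lower, near the 11.6% and 13.9% of all genes. The smallest p there was for Atp6v0a2, which was lower in every DKO heart (-0.32 ± 0.08, adjusted p = 0.069 by limma). Of 16 other fusion genes none passed either, with Vamp8 at 0.27 ± 0.07 and Tbc1d15 at 0.30 ± 0.09. At an unadjusted p below 0.05 in limma 7 of the 16 were higher (43.8%, against 11.6% of all genes) and 1 lower.

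Of 16 other autophagy genes 2 rose and 2 fell, where 2.41% of all genes rose and 2.29% fell, and the median was -0.05. Wdr45, which binds the same lipid as Wipi2, read 12.29, 12.33 and 12.27 in DKO hearts and 11.74, 11.87, 11.91 and 11.79 in control hearts (0.47 ± 0.07, adjusted p = 0.0213 by limma). Bcl2, which binds Becn1 and holds autophagy back, rose by 0.99 ± 0.09 (adjusted p = 0.00677 by limma). Zkscan3, known as a repressor of autophagy and lysosomal genes, fell, with 10.14, 9.97 and 9.92 in DKO hearts against 10.56, 10.36, 10.36 and 10.51 in control hearts (-0.44 ± 0.09, adjusted p = 0.0455 by limma). Trp53inp2, a muscle-expressed partner of ATG8 proteins, fell by 0.62 on the log2 scale (adjusted p = 0.0314 by limma).

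**Figure D5:**
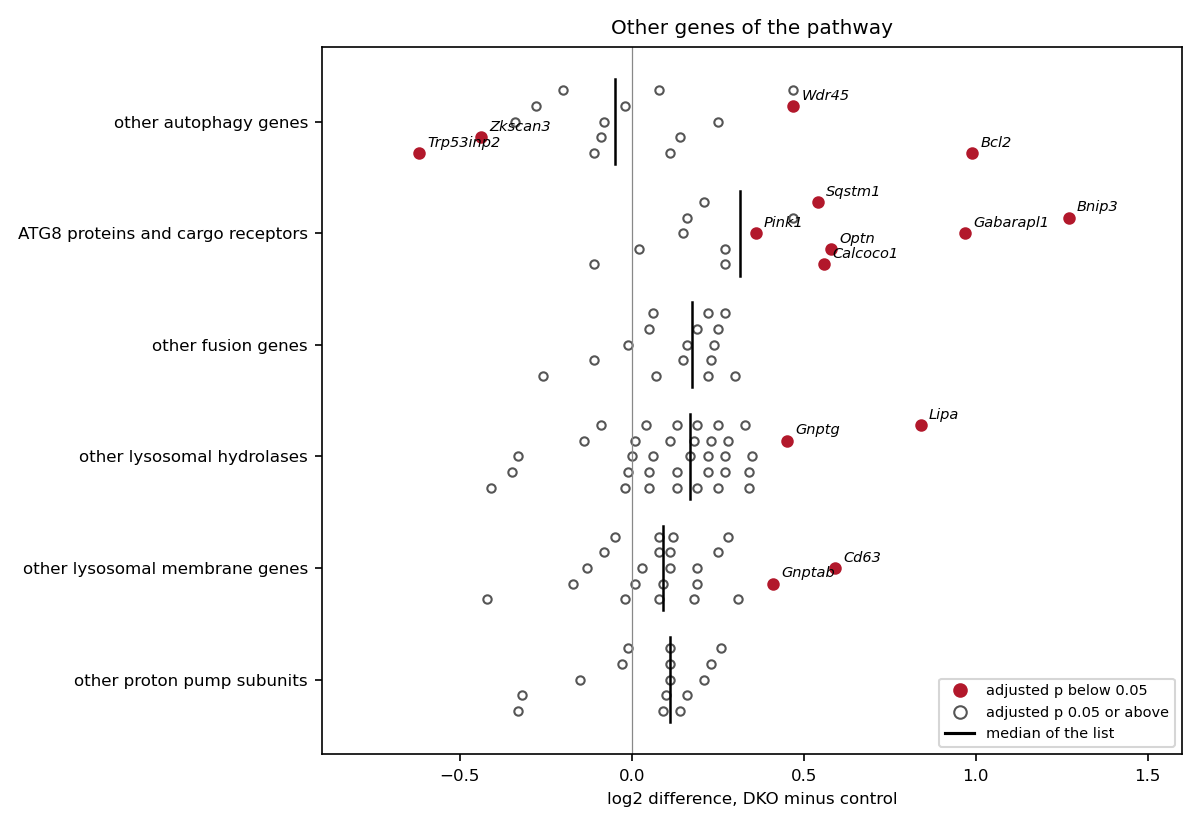
Log2 difference, DKO minus control (x axis), of 119 other genes of the pathway in 6 lists, each point a gene, filled where the adjusted p was below 0.05, with the list median as a bar. The median is 0.32 for ATG8 proteins and cargo receptors, 0.17 for the list of other lysosomal hydrolases, which includes Gnptg, and -0.05 for other autophagy genes.

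The number of members called depended on how variances were estimated. With a trended and robust variance prior, 11 members rose in limma, namely Ulk1, Atg14, Wipi2, Tecpr1, Ctsl, Ctsd, Hexa, Npc2, Mcoln1, Atp6v0d1 and Atp6v1h. In that fit 2028 of all 23678 genes were called, 1095 as higher and 933 as lower. Of these 11, 3 belong to the core and 7 to the lysosomal genes. With no filter on dim probes Hexa alone passed (adjusted p = 0.0489 by limma), and Ctsl gave an adjusted p of 0.0521.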

How the data were processed

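RNA of the heart apex of 7 mice was measured on 1-colour Agilent arrays (1 slide, 1 scan). Per the file headers, the authors quantified the scans with Feature Extraction 12.0.3.1 and probe build mm9, and the deposited processed signal is a background-subtracted intensity, not log-transformed. A further table deposited by the authors gives log2 values, which matched quantile normalized scanner signals centred on each probe's median (r = 0.99999; column medians 0). Its software: not given in the sources used here.

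Control spots and flagged outlier spots were left out, each array's 75th percentile of log2 signal was subtracted, and their mean (9.14) was added. Probes were named by accession through RefSeq, GRCm38.p6 (32994 of 56605 matched 1 symbol). The filter asked for signals well above background on at least 3 arrays, and each of 23678 genes was represented by its brightest probe. The comparison used R 4.3.3 and limma 3.58.1 (group as the single term, two-sided, Benjamini-Hochberg). The normexp alternative used median spot signals. The members and lists were chosen with earlier results of these data known. Every member with an adjusted p below 0.05 and, per role, those with the smallest p are given in full. The fit was tested on simulated data. Each array stands for 1 heart, per the series' design text. Arrays of 1 group correlated at 0.984 to 0.994.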

Additional observations from a re-analysis of the deposited data

Results flagged for a closer look

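Within the control hearts, 1 array lay far from the other 3 for 4 of 47 members, by Dixon's ratio of the gap to the range, which chance exceeds in about 1 of 20 groups. Atg3 (ratio 0.865) and Atg12 (0.865) were low in control replicate 1, at 10.75 and 11.17 against 11.42 to 11.53 and 11.86 to 11.97 in the other controls. Lamp2 (0.899) was high in control replicate 2, at 12.62 against 12.47 to 12.48, and Atp6ap1 (0.885) was low in control replicate 3, at 11.06 against 11.36 to 11.40. The groups of 3 DKO hearts were not tested in this way.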

How the results depend on the processing

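Both medians kept their sign and moved by less than the spread between control arrays in every alternative run: 0.04 to 0.10 for core and 0.21 to 0.28 for lysosomal genes. No alternative called a member as lower. The count of members that rose, 2 as reported, was 4 with median centring, 4 with probes above background on all arrays, 4 with probes of a gene averaged, 3 with normexp, 11 with a trended and robust prior, 1 without the filter and 1 to 3 with an array left out. Gained calls included core genes: Wipi2 passed in limma with median centring (adjusted p = 0.0481), normexp (0.0382), the filter on all arrays (0.0461) and the trended prior (0.031), Atg14 with median centring (0.0495), the filter on all arrays (0.0405), the trended prior (0.032) and without control replicate 2 (0.046), and Ulk1 with averaged probes (0.0407) and the trended prior (0.0217). Genes called in all, 1114 as reported, were 609 with normexp, 121 without the filter, 2028 with the trended and robust prior, 288 with slide row as a block, 191 in the arrays numbered 1 to 3 (chosen after seeing the data) and 160 to 1127 with an array left out: 160, 276 and 352 without DKO replicates 1 to 3 and 712, 1127, 417 and 191 without control replicates 1 to 4. With the replicate number as a block, 1 gene and 0 members were called (Ctsl 0.92 and Hexa 0.70, adjusted p = 0.134 for both by limma), against 2 members in the same arrays without the block. Deviations of same-numbered arrays correlated weakly over all genes (0.129, 0.00691 and 0.0325). The sample labels give only a replicate number, and these correlations do not settle whether same-numbered hearts were paired. The fit with the block has 2 residual degrees of freedom. Values near 0 changed sign: Atg5 to 0.01 with median centring and 0.00 with normexp, Atg2a to -0.02 and Atg3 to 0.01 with normexp, Atg3 to 0.00 with and without the block, Atg4b to 0.14 and Atg10 to -0.01 with the mean of probes, and Atg10 to -0.04 with slide row as a block. With an array left out the ranges were -0.05 to 0.09 for Atg10, -0.03 to 0.07 for Atg2a, -0.23 to 0.12 for Atg3, -0.10 to 0.07 for Atg5, -0.18 to 0.05 for Ctss, -0.09 to 0.02 for Npc1 and -0.04 to 0.07 for Ulk2. None of these passed in any fit. Signal over background did not limit the members, all being measured on 7 arrays.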
